A study of Mus musculus with 9 samples.

Results

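The urea cycle and the enzymes that break down tyrosine, histidine and tryptophan were followed through 9 orthotopic Hepa1-6 tumors by the transcript levels of 9 genes. These were Cps1, Otc, Ass1 and Asl of the urea cycle and Hpd, Hgd, Tat, Hal and Tdo2 of amino acid catabolism, 9 of the 52176 gene symbols that the tables name. The members were chosen by symbol: in each tumor, the values of all entries that name the gene were summed. All 9 were found in every tumor, and all 9 passed the filter on low values in every comparison.

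The urea cycle is the liver's route for turning ammonia into urea. Its enzymes are most abundant in the hepatocytes around the portal vein, and liver tumors are known to lose part of the pathway. The tyrosine, histidine and tryptophan enzymes are likewise characteristic of differentiated hepatocytes, and several of them are controlled by glucocorticoids and by the fasting hormone glucagon.

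Pieces of tumor grown from Hepa1-6, a mouse hepatoma cell line, had been implanted in the left liver lobe of male C57BL/6 mice without other genetic change. The mice were injected intraperitoneally with PBS or with anti-PD-1 antibody, which blocks an inhibitory receptor on T cells, every 4 days for 5 injections. From the antibody-treated mice the 3 largest tumors formed the nonresponsive group and the 3 smallest the responsive group, and tumors of intermediate size were left out. The 3 PBS tumors were the control, so each group held 3 whole tumors, each from 1 mouse, trimmed of the tissue around them. The responsive and nonresponsive groups therefore shared the antibody and were defined by tumor size, and a difference between them cannot be told apart from a difference tied to size.

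Levels are given as FPKM, mapped fragments per kilobase of transcript scaled to the total of each library, as deposited, and differences as means of log2(FPKM + 1), which understates the change of low genes. The tables hold no counts, so the depth is not known. The most frequent ratio of low values put the tumors at a rough 0.936 to 1.07 times the depth of PBS 1. Only ratios near equal depth were searched, and that ratio rested on as few as 54 of 1619 entries (nonresponsive 2). Equal depth was therefore not shown. Entries that name no gene took 19.2% to 81.5% of the FPKM of a tumor, 70.4% to 73.2% in the nonresponsive tumors and 20.96% to 55.1% in the responsive ones, while named entries summed to between 651110 and 814452. Between 12533 and 13328 named entries reached 1 FPKM.

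On average over the 9 tumors Ass1 and Hpd had the highest levels, 108.7 and 106.0 FPKM. Asl followed at 40.3, Hgd at 33.8, Tdo2 at 30.5, Cps1 at 29.5, Tat at 22.4 and Otc at 20.7 FPKM, and Hal was lowest at 3.02 FPKM. The ranges of neighbors in this order overlapped, although Hal was below Otc in each of the 9 tumors. The ratio of the highest to the lowest tumor was 3.98 for Asl, 14.1 for Ass1, 30.7 for Tat, 53.0 for Hal, 59.4 for Hgd, 70.1 for Cps1, 91.0 for Hpd, 115 for Tdo2 and 123 for Otc. One tumor, PBS 1, was the lowest of the 9 for all 9 members. Without it these ratios ran from 3.84 for Ass1 to 19.2 for Hal, and responsive 1 was the highest tumor for 8 members.

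**Figure D1:**
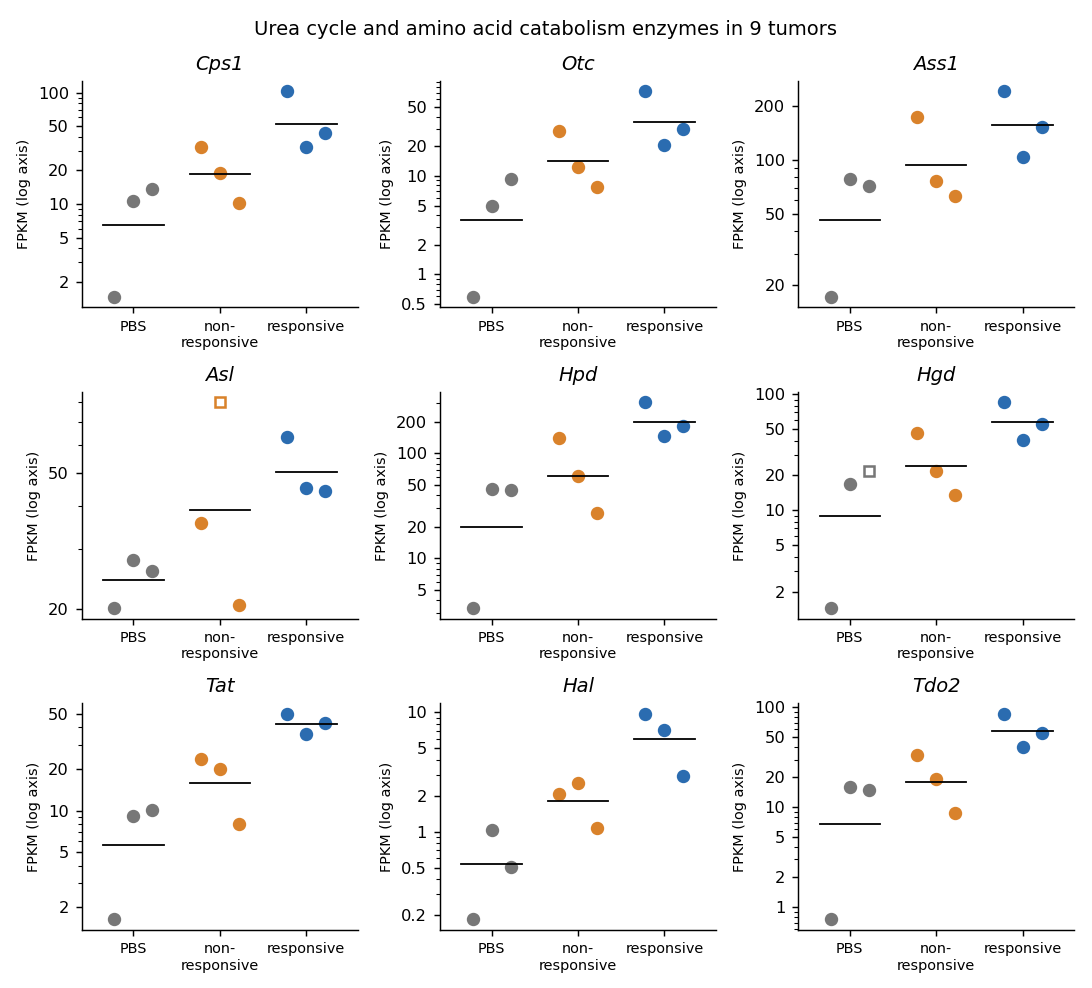
FPKM of each enzyme in each tumor on a log axis, with replicates 1 to 3 from left to right in each group and a line at the group mean taken on log2(FPKM + 1). Open squares mark the entries shared with another gene, Asl in nonresponsive 2 at 80.0 FPKM and Hgd in PBS 3 at 21.8 FPKM; the lowest point in each panel is PBS 1.

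Cps1 encodes carbamoyl phosphate synthetase, the mitochondrial enzyme that opens the urea cycle (chromosome 1, GRCm38 positions 67123026 to 67231259). Its level was 1.46, 10.6 and 13.7 FPKM in the PBS tumors, 32.2, 18.9 and 10.2 FPKM in the nonresponsive tumors and 102.5, 32.2 and 43.3 FPKM in the responsive tumors. Nonresponsive 1 and responsive 2 met at the border of their groups, at 32.20 and 32.23 FPKM. Otc encodes ornithine transcarbamylase, the next mitochondrial step, and lies on the X chromosome (positions 10252305 to 10321024). It stood at 0.586, 4.89 and 9.26 FPKM in PBS tumors, at 28.4, 12.3 and 7.65 FPKM in the nonresponsive group and at 72.3, 20.4 and 30.2 FPKM in the responsive group. Nonresponsive 1 lay above responsive 2, and nonresponsive 3 lay below PBS 3.

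Ass1 encodes argininosuccinate synthetase, which joins citrulline to aspartate in the cytosol (chromosome 2, 31470207 to 31520672). Its FPKM was 17.2, 78.5 and 71.8 in PBS, 173, 76.2 and 62.9 in the nonresponsive group and 242, 104 and 152 in the responsive group. The nonresponsive values spanned those of PBS 2, PBS 3, responsive 2 and responsive 3. Asl encodes argininosuccinate lyase, which releases arginine (chromosome 5, 130011258 to 130029247). It had the smallest ratio of highest to lowest tumor with PBS 1 included, though not without it, and stood at 20.1, 27.7 and 25.9 FPKM in PBS and 63.6, 45.0 and 44.1 FPKM in responsive tumors. The nonresponsive tumors read 35.5, 80.0 and 20.6 FPKM, and the highest of these belongs to an entry that also names Gusb, the lysosomal beta-glucuronidase. In the other 8 tumors Gusb had its own entry at 27.5 to 60.9 FPKM, so the reading of 80.0 FPKM is not one of Asl alone. With the Asl and Gusb values joined in every tumor, nonresponsive 2 held 80.0 FPKM beside 88.1 and 56.1 FPKM in the other nonresponsive tumors and 124.5, 72.6 and 88.9 FPKM in the responsive ones.

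Tat encodes tyrosine aminotransferase, the first step of tyrosine breakdown and a classical glucocorticoid-induced liver gene (chromosome 8, 109990437 to 109999803). Its level was 1.64, 9.17 and 10.1 FPKM in PBS, 23.7, 19.97 and 8.03 FPKM in nonresponsive and 50.3, 35.7 and 43.0 FPKM in responsive tumors. The 3 responsive tumors were close together, with an SD of 0.24 on the log2 scale against 0.78 in the nonresponsive and 1.16 in the PBS tumors. Hpd encodes the 4-hydroxyphenylpyruvate dioxygenase that acts next (chromosome 5, 123171807 to 123182727). It read 3.36, 45.5 and 45.1 FPKM in PBS, 140, 61.0 and 27.1 FPKM in nonresponsive and 306, 146 and 181 FPKM in responsive tumors. The lowest responsive tumor was just above the highest nonresponsive one. Hgd encodes homogentisate dioxygenase, the ring-opening step that follows (chromosome 16, 37580153 to 37632020). It read 1.43, 16.9 and 21.8 FPKM in PBS, 46.7, 21.9 and 13.7 FPKM in nonresponsive and 85.2, 40.8 and 55.6 FPKM in responsive tumors. The PBS 3 entry also names Rabl3, a small GTPase gene whose own entry held 3.51 to 10.6 FPKM in the other 8 tumors.

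Hal encodes histidine ammonia-lyase, the first step of histidine breakdown (chromosome 10, 93488768 to 93519304). It was the scarcest member, at 0.184, 1.03 and 0.509 FPKM in PBS, 2.05, 2.53 and 1.07 FPKM in nonresponsive and 9.75, 7.16 and 2.90 FPKM in responsive tumors. The 3 groups did not overlap, although responsive 3 lay near the nonresponsive tumors and the gap between PBS 2 and nonresponsive 3 was small. The bounds that Cufflinks gave for single tumors were wide at these levels, 0.376 to 1.69 FPKM in PBS 2, 0.366 to 1.78 FPKM in nonresponsive 3, 1.64 to 3.43 FPKM in nonresponsive 2 and 2.33 to 3.47 FPKM in responsive 3. The order of neighboring tumors was therefore not resolved for Hal. Tdo2 encodes tryptophan dioxygenase, the hepatic entry to the kynurenine pathway (chromosome 3, 81957090 to 81976202). It read 0.753, 15.9 and 14.7 FPKM in PBS, 33.6, 19.2 and 8.80 FPKM in nonresponsive and 86.4, 39.8 and 55.5 FPKM in responsive tumors. Every responsive tumor was above every tumor of the other groups.

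The sequence before the start sites of the members was searched for liver and general promoter motifs. RefSeq promoters (250 bases before to 50 after the start, GRCm38.p6) were at hand for 7 members, and those of Cps1 and Asl were not among them. The 4 that held a match are shown 5′ to 3′ in the direction of the gene, with matches on either strand in capitals. Hal covers chr10:93488518-93488817 and Hgd chr16:37579903-37580202, both on the plus strand. Tat covers chr8:109990186-109990485 on the plus strand and Tdo2 chr3:81975679-81975978 on the minus strand.
Hal: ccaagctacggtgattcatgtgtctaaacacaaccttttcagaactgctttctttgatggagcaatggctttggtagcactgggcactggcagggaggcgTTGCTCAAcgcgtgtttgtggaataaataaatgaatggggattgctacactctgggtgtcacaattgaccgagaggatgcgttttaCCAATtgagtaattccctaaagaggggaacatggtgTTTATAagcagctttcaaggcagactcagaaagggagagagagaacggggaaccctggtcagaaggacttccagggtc
Hgd: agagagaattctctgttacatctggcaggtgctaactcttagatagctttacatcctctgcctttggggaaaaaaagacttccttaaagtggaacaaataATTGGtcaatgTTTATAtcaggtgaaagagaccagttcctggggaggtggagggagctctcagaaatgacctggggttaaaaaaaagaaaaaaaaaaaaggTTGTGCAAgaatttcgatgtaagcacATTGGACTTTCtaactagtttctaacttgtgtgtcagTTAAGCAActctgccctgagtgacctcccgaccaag
Tat: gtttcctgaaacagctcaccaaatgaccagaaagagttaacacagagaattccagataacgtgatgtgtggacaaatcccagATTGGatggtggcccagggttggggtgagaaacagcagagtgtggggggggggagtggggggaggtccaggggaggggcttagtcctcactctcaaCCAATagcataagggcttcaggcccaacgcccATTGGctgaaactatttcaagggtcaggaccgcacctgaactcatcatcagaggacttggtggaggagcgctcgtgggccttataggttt
Tdo2: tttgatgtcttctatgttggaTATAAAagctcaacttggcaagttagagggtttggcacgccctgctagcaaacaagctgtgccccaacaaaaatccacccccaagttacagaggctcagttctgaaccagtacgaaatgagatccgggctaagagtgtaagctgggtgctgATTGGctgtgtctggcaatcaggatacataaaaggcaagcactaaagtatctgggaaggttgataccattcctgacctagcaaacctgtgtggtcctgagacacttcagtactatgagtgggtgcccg

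The C/EBP letters TTGCNNAA stood in Hal and, at 2 places, in Hgd, thus in 2 of 7 members, against 10.8% of the 32817 distinct promoters of the table. The HNF4 letters CAAAGTCCA, with at most 1 mismatch, matched in Hgd alone among the 7, against 8.48% of all promoters, and there overlapped a CCAAT match. The TATA box TATAAA was in 3 of 7 members (13.6% of all promoters) and CCAAT in 4 of 7 (37.4%). HNF1 (GTTAATNNT, 2.57% of all promoters), the cAMP response element TGACGTCA (1.79%) and its core TGACG (20.8%) were in none of the 7 windows. Ass1, Hpd and Otc held no match to any of these letters. With 7 windows, these counts describe the sequences and test nothing about the factors.

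Responsive against nonresponsive tumors is the comparison of the smallest with the largest tumors under the same antibody. All 9 enzymes had higher means in responsive tumors, 7 of them by 2.33- to 3.22-fold on the log2(FPKM + 1) scale, and the difference was smallest for the cytosolic urea cycle enzymes Ass1 and Asl. The mean difference was 1.69 for Hpd, 1.63 for Tdo2, 1.45 for Cps1, 1.38 for Tat, 1.31 for Hal, 1.29 for Otc, 1.22 for Hgd, 0.73 for Ass1 and 0.36 for Asl. The 95% intervals were 0.13 to 3.24 for Hpd, 0.32 to 2.93 for Tdo2 and 0.36 to 2.41 for Tat, and they spanned 0 for Otc, Ass1, Asl and Hgd. In bulk tumors, fewer cells of a type and less RNA per cell cannot be told apart, here and below.

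None of these 9 differences passed the test across all symbols, with Benjamini-Hochberg adjusted p from limma of 0.887 to 0.971, and 0.0988% of the 15177 symbols tested did. At unadjusted p under 0.05, limma called 5 members higher (Tat, Tdo2, Hal, Hpd and Cps1, p 0.0166 to 0.0442), where 4.01% of all symbols were so called. The same 5 members were higher in every responsive than in every nonresponsive tumor, as were 5.97% of all symbols. By the exact permutation test, these 5 reached 0.1, the smallest two-sided p that 3 against 3 allows. The members' median difference was 1.31, beside -0.06 over all symbols. The count of 5 was 0 without responsive 1, 2 without responsive 3, 2 without nonresponsive 2 or 3 and 8 without nonresponsive 1. Rescaling the named entries to the same sum in each tumor moved the median of all symbols to -0.24 and the members' to 1.20, with 3 members under 0.05. It also turned the split of all symbols under 0.05 from 609 higher and 216 lower to 340 and 636.

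**Figure D2:**
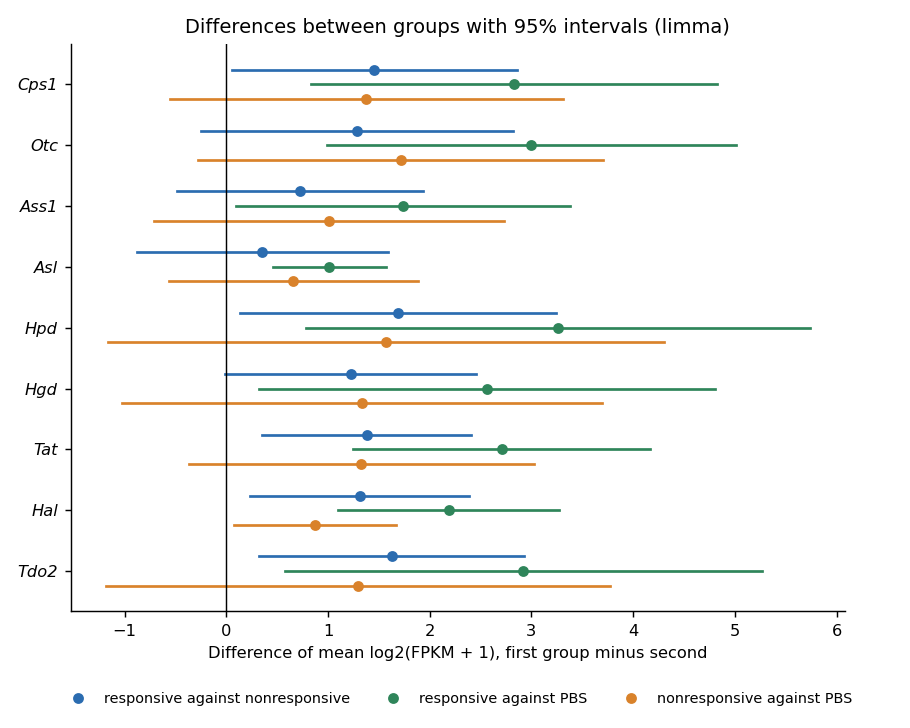
Difference of mean log2(FPKM + 1) for each enzyme in the 3 comparisons, with points for the limma estimate and lines for its 95% interval. Points of the responsive against PBS comparison lie between 1.01 (Asl) and 3.26 (Hpd), and the intervals of the nonresponsive against PBS comparison cross 0 for every enzyme except Hal.

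Responsive against PBS tumors gave larger differences, and each of the 9 enzymes was higher in every responsive tumor than in any PBS tumor. The mitochondrial urea cycle enzymes Otc and Cps1 were higher by 3.00 and 2.83 on the log2 scale, and the cytosolic Ass1 and Asl by 1.74 and 1.01. The amino acid catabolism enzymes were higher by 3.26 for Hpd, 2.92 for Tdo2, 2.71 for Tat, 2.56 for Hgd and 2.19 for Hal, with standard errors of 0.44 for Hal to 1.00 for Hpd. The interval for Asl, 0.46 to 1.57, was the narrowest, and that for Hpd ran from 0.78 to 5.73. The 9 members had unadjusted limma p of 0.00287 (Hal) to 0.0414 (Ass1), and 8.63% of the 15197 symbols were higher at that threshold. No overlap between the groups was seen for all 9, against 11.8% of all symbols. After Benjamini-Hochberg adjustment the limma p was 0.279 to 0.285 for the members, so none passed, and 0.217% of all symbols did.

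The size of these differences depended on 1 PBS tumor, more for Hpd than for Hal or Asl. Without PBS 1 the members' median difference was 2.00 in place of 2.71, with Otc at 2.24, Hpd at 2.12, Tat at 2.04, Cps1 at 2.03, Hal at 2.00, Tdo2 at 1.85, Hgd at 1.54, Ass1 at 1.05 and Asl at 0.88. All 9 still had unadjusted limma p under 0.05, whereas leaving out responsive 1 left 5 of 9. Over all symbols the median was -0.11, or -0.24 after rescaling, which turned 1312 higher and 1321 lower symbols under 0.05 into 1024 and 2404.

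Nonresponsive against PBS tumors uses the same PBS tumors again, so its values are not independent of those above. The 9 means were higher in nonresponsive tumors, by 1.71 for Otc, 1.57 for Hpd, 1.38 for Cps1, 1.34 for Hgd, 1.33 for Tat, 1.30 for Tdo2, 1.01 for Ass1, 0.87 for Hal and 0.66 for Asl. The place of Hal in this order depends on the pseudocount: with 0.1 in place of 1 its difference was 1.70, second to Otc at 2.14, and 3.37 in place of 2.19 for responsive against PBS. The ratio of its mean FPKM was 3.28 for nonresponsive and 11.5 for responsive against PBS. The tumors overlapped for every member except Hal, and nonresponsive 3 was among the 4 lowest of the 9 tumors for all 9 enzymes. Hal had an unadjusted limma p of 0.0365, where 1.54% of the 15153 symbols were higher at that threshold, and its groups did not overlap, as in 3.23% of all symbols. The members' adjusted p (limma, Benjamini-Hochberg) was 0.719, and 0.0726% of all symbols passed. Without PBS 1 the median difference of the members was 0.53 in place of 1.33, with no member under an unadjusted 0.05, as also without nonresponsive 1 or 2. Without nonresponsive 3 there were 2. Rescaling turned 233 higher and 250 lower symbols under 0.05 into 292 and 194.

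The make-up of the summed level also differed between tumors. The 9 members together held 46.7 FPKM in PBS 1, 210 and 213 FPKM in the other PBS tumors, 160 to 515 FPKM in nonresponsive and 471 to 1017 FPKM in responsive tumors. Ass1 and Asl made up 79.8% of that sum in PBS 1, 50.6% and 45.9% in PBS 2 and 3, 40.5% to 52.2% in the nonresponsive tumors and 30.0% to 32.3% in the responsive ones. Hpd took 7.19% in PBS 1, 21.6% and 21.2% in PBS 2 and 3, 16.9% to 27.2% in the nonresponsive tumors and 29.8% to 31.0% in the responsive tumors. Ass1 was 11.7 times Cps1 in PBS 1, 7.38 and 5.24 times in PBS 2 and 3, 4.04 to 6.14 times in nonresponsive and 2.36 to 3.51 times in responsive tumors, whereas the ratio of Otc to Cps1 stayed between 0.400 and 0.882. Apart from PBS 1, the shares of Ass1 with Asl and of Hpd in PBS tumors thus lay within the nonresponsive range. These shares are descriptions, and the value of nonresponsive 2 includes the entry shared with Gusb.

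**Figure D3:**
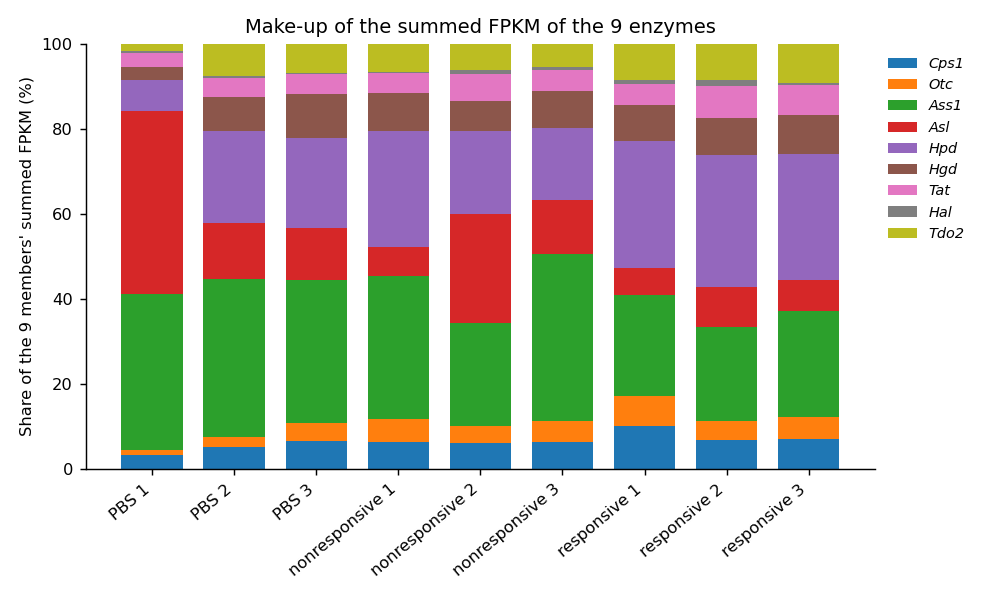
Share of each enzyme in the summed FPKM of the 9 enzymes, as stacked bars in percent for each tumor. Ass1 and Asl together take 79.8% in PBS 1 and about equal shares of 30.0% to 32.3% in the 3 responsive tumors.

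Hepatocyte markers followed the same order of tumors at both ends. The 12 markers Alb, Ttr, Apoa1, Apob, Trf, Ahsg, Hpx, Fgb, Serpina1a, F2, Cyp3a11 and Cyp2c29 were all detected, none of them at 0 in every tumor, and summed to 734 to 8085 FPKM in PBS, 5522 to 17616 FPKM in nonresponsive and 13185 to 25928 FPKM in responsive tumors. PBS 1 was lowest and responsive 1 highest, as for the enzymes. Alb, the albumin gene, read 173, 835 and 1259 FPKM in PBS, 2678, 1490 and 885 FPKM in nonresponsive and 5041, 2576 and 4396 FPKM in responsive tumors. Afp, the fetal liver protein that many hepatomas make, read 20.4, 25.3 and 18.2 FPKM in PBS, 0.321, 9.18 and 56.5 FPKM in nonresponsive and 0.646, 53.9 and 4.40 FPKM in responsive tumors, with overlapping groups. Of the 5 oncofetal genes tested, 4 had lower means in responsive than in nonresponsive tumors, with a median of -0.79, and H19, a fetal noncoding RNA, was under an unadjusted limma p of 0.05 (-1.95, p 0.0125). At that threshold, 216 of the 15177 symbols tested were lower in responsive than in nonresponsive tumors. H19 read 19.12, 2.87 and 12.04 FPKM in PBS and 17.6, 15.7 and 39.3 FPKM in nonresponsive tumors. In responsive tumors H19 read 11.03, 3.52 and 3.01 FPKM. The PBS values overlapped those of both other groups. Against PBS, H19 differed by -0.74 in responsive tumors (unadjusted limma p 0.359) and by 1.21 in nonresponsive tumors (p 0.134). Over the 9 tumors, Pearson's r between a member and the mean of the 12 markers was 0.999 for Hgd, 0.989 for Hpd, 0.987 for Tdo2, 0.978 for Ass1, 0.977 for Cps1, 0.973 for Otc, 0.963 for Tat, 0.776 for Hal and 0.652 for Asl. These are descriptions over 9 points that share their libraries, with PBS 1 far from the rest.

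**Figure D4:**
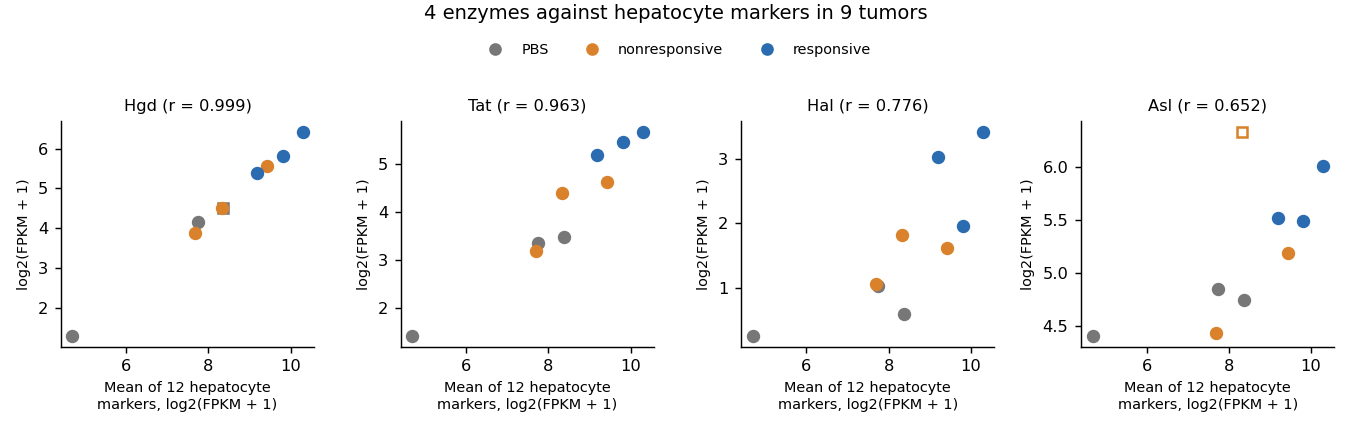
log2(FPKM + 1) of Hgd, Tat, Hal and Asl against the mean of 12 hepatocyte markers in the 9 tumors, colored by group, with open squares for entries shared with another gene. Hgd follows the markers with r = 0.999, and PBS 1 sits alone at the low end of each panel.

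A fit over all 9 tumors with the marker mean as a covariate estimated the differences at equal marker level from a straight line. Between responsive and nonresponsive tumors the median of the members was then 0.36, with Hal at 1.09 and Tat at 0.60 under an unadjusted limma p of 0.05 (0.0461 and 0.0495), Cps1 at 0.45, Tdo2 at 0.42, Hpd at 0.36, Otc at 0.26, Asl at 0.16, Hgd at 0.05 and Ass1 at -0.12. In that fit 3.06% of all symbols were higher under 0.05, 465 symbols beside 816 that were lower. Against PBS the median was 0.57, again with Hal (1.70) and Tat (1.00) under that threshold and the other 7 not, where 1.38% of all symbols were higher under it. These values also depend on which genes stand for the hepatocyte, and the covariate differs between the groups.

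Markers of other cells were uneven between single tumors. Pancreatic acinar genes summed to 841 FPKM in nonresponsive 2 and 11.1 to 18.1 FPKM in the other 8 tumors. Skeletal muscle genes reached 211 FPKM in nonresponsive 3 and 2.31 to 77.2 FPKM elsewhere. Fibroblast markers summed to 2340 to 2396 FPKM in responsive, 2705 to 4418 FPKM in nonresponsive and 2483 to 3884 FPKM in PBS tumors. In the same order, T cell markers summed to 126 to 173, 92.7 to 119 and 55.0 to 157 FPKM. Macrophage markers summed to 895 to 1463, 1026 to 1877 and 557 to 1015 FPKM. Of 6 T cell markers, 1 was higher in responsive than nonresponsive tumors at an unadjusted limma p under 0.05, beside 4.01% of all symbols. Cd8a read 2.46, 22.8 and 19.1 FPKM in responsive and 4.70, 6.77 and 6.64 FPKM in nonresponsive tumors, with overlapping groups. Proliferation genes summed to 53.5, 239 and 162 FPKM in responsive and 47.9, 236 and 470 FPKM in nonresponsive tumors, and to 433, 210 and 358 FPKM in PBS tumors. The lowest sums were those of nonresponsive 1 and responsive 1, the tumors with the highest summed level of the members in their groups, while in PBS tumors PBS 3 had the highest member sum and PBS 2 the lowest proliferation sum. Kidney tubule genes, from a tissue that also makes Ass1 and Asl, stayed at 6.89 FPKM or less, with Slc22a6 at 0 in every tumor. The part of these cells in the members' differences was not tested.

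The rest of the pathways was followed through 73 other genes of the urea cycle and of amino acid catabolism. Between responsive and nonresponsive tumors 69 of them were tested, 61 had higher means in responsive tumors, and 21 of those but none of the lower ones had an unadjusted limma p under 0.05. None passed adjustment. Their median difference was 0.89. Over all symbols, 43.0% had higher means in responsive tumors and 4.01% were higher under 0.05. These shares of all symbols also stand beside the list counts below for this comparison. Against PBS, 67 of 70 pathway genes were higher in responsive tumors and 47 were under 0.05. Of all symbols, 42.3% were higher there and 8.63% were higher under 0.05. Between nonresponsive and PBS tumors 56 of 69 pathway genes were higher and 0 were under 0.05. Of all symbols, 44.7% were higher there and 1.54% were higher under 0.05.

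Within the urea cycle group, 2 of 10 tested genes were under an unadjusted 0.05 between responsive and nonresponsive tumors. Slc25a15, the ornithine carrier of the mitochondrion, was higher by 0.89 (p 0.0438 by limma, unadjusted) and Glud1, the glutamate dehydrogenase that releases ammonia, by 0.62. Nags, which makes the activator that Cps1 needs, was higher by 0.83 without passing. Arg1, the arginase that closes the cycle and is also made by myeloid cells, had the opposite sign at -0.69, with a limma p of 0.326. It read 68.9, 249 and 348 FPKM in PBS, 676, 414 and 162 FPKM in nonresponsive and 407, 150 and 177 FPKM in responsive tumors. Its 3 groups overlapped, and against PBS its difference in responsive tumors was 0.28, beside 2.83 for Cps1. Glul, the glutamine synthetase that takes up ammonia around the central vein, was higher by 1.04 in responsive than in nonresponsive tumors (unadjusted limma p 0.0246).

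Between responsive and nonresponsive tumors, the other genes of tyrosine and histidine metabolism had the sign of the members. Between nonresponsive and PBS tumors, 3 of the 5 tyrosine genes had lower means, with a median of -0.17. Of 5 other genes of tyrosine metabolism tested, 2 were under an unadjusted 0.05, Pcbd1 at 0.89 and Qdpr at 0.71, which both recycle the cofactor tetrahydrobiopterin. Fah, the last enzyme of tyrosine breakdown, stood at 85.7, 26.7 and 96.3 FPKM in PBS and 105, 33.1 and 29.0 FPKM in nonresponsive tumors. In responsive tumors Fah read 116, 60.5 and 76.8 FPKM, and its groups overlapped. Of the 3 other histidine genes, Amdhd1 was higher by 1.77 and Uroc1, the urocanase that acts after Hal, by 1.05, both under 0.05, and Ftcd by 1.20 without passing. None of the 7 tryptophan genes tested was under 0.05. Haao of the kynurenine pathway was higher by 1.37, while Afmid, which acts just after Tdo2, differed by -0.05.

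Among further amino acid pathways, 7 of 16 glycine, serine, threonine and proline genes and 4 of 8 methionine and cysteine genes were under 0.05 with a higher mean in the responsive group. Gnmt, the glycine methyltransferase of the liver, was higher by 1.67 and Cbs, which starts cysteine synthesis from homocysteine, by 1.53. Of 20 lysine and branched-chain genes, 4 were under 0.05, with a median of 0.42. Sds, a serine dehydratase of the periportal liver, was listed at 0 in every tumor.

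**Figure D5:**
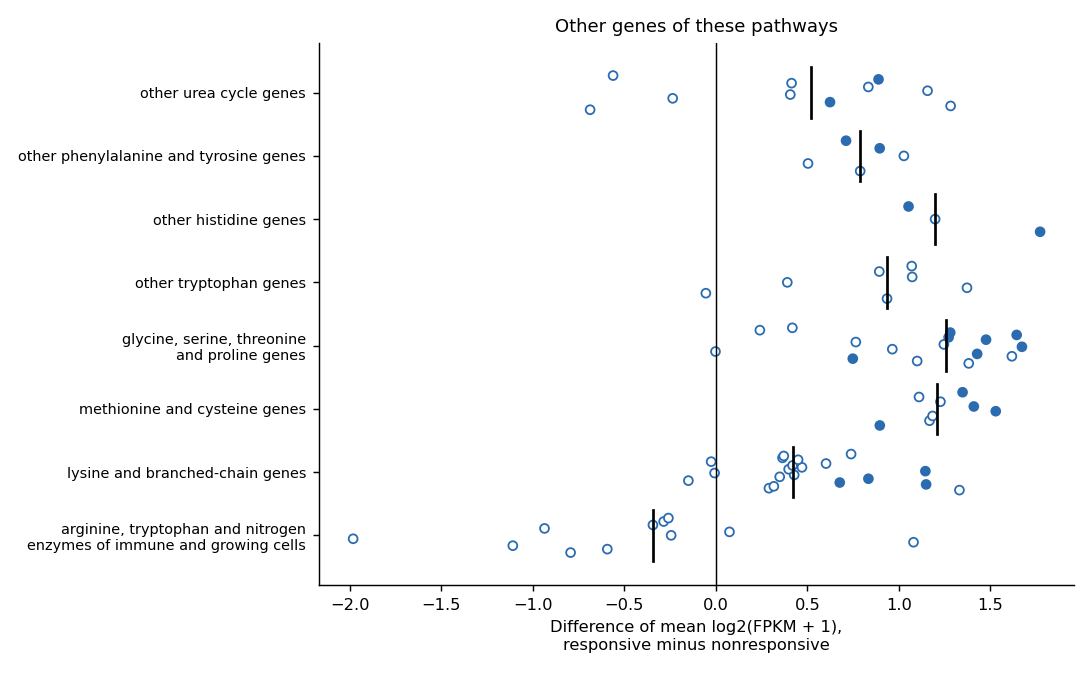
Difference of mean log2(FPKM + 1) between responsive and nonresponsive tumors for other genes of amino acid and nitrogen metabolism, 1 point a gene, filled at an unadjusted limma p under 0.05, with a bar at each median. Medians of the catabolic groups lie between 0.42 and 1.26, and the group of immune and growing cells has its median at -0.34 with no filled point.

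A separate list held enzymes that use arginine, tryptophan or nitrogen in immune or growing cells. Of 11 tested, 9 had lower means in responsive than in nonresponsive tumors, with a median of -0.34 and 0 under an unadjusted 0.05 in either direction, where 43.0% of all symbols had higher means in responsive tumors. Cad (1.08) and Il4i1 (0.07) had the sign of the members. Cad read 75.7, 11.6 and 9.70 FPKM in responsive and 4.92, 10.3 and 15.4 FPKM in nonresponsive tumors, so only responsive 1 stood apart. It also read 51.0 FPKM in PBS 1, where the members were lowest. Ido1, the tryptophan dioxygenase of interferon-treated cells, read 43.3, 96.2 and 66.7 FPKM in PBS, 0.410, 75.8 and 132 FPKM in nonresponsive and 0.112, 112 and 68.1 FPKM in responsive tumors. Both tumors at or near 0 were those in which Tdo2 was highest in its group. In PBS tumors, by contrast, Ido1 and Tdo2 were both highest in PBS 2 and both lowest in PBS 1. Responsive 1 was also the highest tumor for 8 members, so its place was not particular to Tdo2. Phgdh, which starts serine synthesis, read 8.70, 73.6 and 189 FPKM in nonresponsive and 12.3, 94.3 and 59.1 FPKM in responsive tumors. Asns, the asparagine synthetase, was lower by -1.12 in responsive than in PBS tumors (unadjusted limma p 0.0397), the only gene of this group under 0.05 in any comparison.

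Position in the liver lobule did not separate the genes by sign. Of 10 periportal genes tested, 9 had higher means in responsive tumors than in nonresponsive ones, with a median of 1.17, and of 9 pericentral genes 8 were higher with a median of 1.09. The periportal list holds Cps1, Ass1, Asl and Hal themselves. Among 13 regulators of hepatocyte genes, 11 had higher means in responsive than in nonresponsive tumors, and 3 were under an unadjusted limma p of 0.05. Those were Klf15, which controls amino acid breakdown in fasting (1.14), Hnf4a (1.05) and Foxa1 (0.94). The 3 most abundant regulators were not under it, Cebpa at 0.58, Foxa2 at 0.14 and Cebpb at -0.14. The glucocorticoid receptor gene Nr3c1 differed by -0.05.

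The members resembled one another and liver genes more broadly. Pearson's r over the 9 tumors was 0.762 to 0.997 for the 28 pairs without Asl and 0.618 to 0.776 for the 8 pairs with Asl. Of 11019 other symbols, the 5 whose profile was most like the mean of the members were Dpyd (r 0.997), Slc27a2, Uroc1, Mat1a and Abat (r 0.994 each). Hepatocyte markers were almost as alike, with r of 0.994 for Ttr, 0.987 for Alb, 0.9753 for Apob, 0.9745 for F2 and 0.972 for Ahsg. Trf (0.967), Apoa1 (0.961) and Fgb (0.941) were lower. Hpx, Serpina1a, Cyp3a11 and Cyp2c29 were not among the 11019 symbols and have no r. Dpyd, which breaks down pyrimidines, read 0.461, 5.06 and 5.23 FPKM in PBS, 13.2, 7.83 and 4.86 FPKM in nonresponsive and 29.5, 15.0 and 19.5 FPKM in responsive tumors. These correlations describe 9 libraries, of which PBS 1 was lowest and responsive 1 highest for all 5.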

How the data were processed

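The authors deposited 1 table of FPKM values a tumor, made by Cufflinks and listing each assembled or annotated entry with its FPKM and bounds. The submitters' processing notes name TopHat2 2.1.1, Bowtie2 2.2.4 and the build mm8. The starts of 0 of 9 members matched GRCm38 (GENCODE M21) although 9 of 9 lengths did, so positions are quoted from GRCm38 by symbol. The Cufflinks version and annotation release are not given in the sources used here. The series table of the authors' own comparisons (fold changes and p-values) was not used. Entries naming several genes gave their value to each, and 13 symbols with a failed estimate were left out. FPKM are relative to all mapped fragments of a tumor, so the value of 1 entry depends on the others.

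Values were tested with limma 3.58.1 in R 4.3.3 (lmFit, eBayes with trend) on log2(FPKM + 1), for symbols of at least 1 FPKM in at least 3 of the 6 tumors compared, as a two-sided test whose p-values were adjusted by Benjamini-Hochberg across those symbols, with a threshold of 0.05. The script was tested on simulated data. Exact permutation tests used scipy 1.17.1. P-values set a difference between groups against the spread of these tumors, and the treated ones were picked as the largest and smallest. Named are all members, of each pathway list chosen examples from its 3 most abundant genes and its largest changes, the 5 most alike symbols, and Arg1, Nags, Slc25a15, Glul, Alb and Afp. Names beyond that rule (Qdpr, Hnf4a, Foxa1, Nr3c1, Sds, H19, Cad, Il4i1, Cd8a, Gusb and Rabl3) were chosen after their values were seen. The members and lists were chosen with earlier results of these data known. 1 gene of the pathway lists is not reported here. Besides leaving out each tumor, 10 alternatives were run.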

Additional observations from a re-analysis of the deposited data

How the results depend on the processing

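Of 143 member values recomputed for each comparison, 141 stayed above 0 for responsive against nonresponsive, 141 for responsive against PBS and 139 for nonresponsive against PBS, and in every alternative run 0 members were under an adjusted 0.05 in limma. For responsive against nonresponsive the count of members under an unadjusted 0.05 was 5, and it was 4 with upper-quartile scaling (Cps1 lost) or a minimum of 5 FPKM (Hal not tested), 3 with rescaled entries, 1 in the fit over all 9 tumors, 2 with the hepatocyte covariate and 0 to 8 when tumors were left out. With that covariate the median was 0.36 and Ass1 -0.12, and leaving out tumors took Asl from -0.088 (without nonresponsive 3) to 0.87 (without nonresponsive 2, whose entry was shared). For responsive against PBS the count of 9 was 2 with the covariate (median 0.57, Ass1 -0.14, Hgd -0.022), 8 in the fit over all 9 tumors (Asl lost), 8 at a minimum of 5 FPKM (Hal not tested) and 5 to 9 when tumors were left out. For nonresponsive against PBS the count of 1 was 0 with a pseudocount of 0.1, a minimum of 5 FPKM (where Hal was not tested), all 9 tumors or the covariate (median 0.17, Ass1 -0.018, Hpd -0.027, Hgd -0.0735, Tdo2 -0.16), and 0 to 2 when tumors were left out. The cause was not tested. Same-numbered tumors did not deviate together throughout (r 0.475, 0.0197 and -0.0768 for responsive with nonresponsive). The sample labels state no pairing, and these r, from groups of 3, cannot settle whether the numbers pair tumors. With the replicate number as a block 7, 7 and 0 members were under 0.05 in the 3 comparisons, in the order above. Symbols passing adjustment were 15, 33 and 11, against 8, 19 and 5 with genes of shared entries joined, 8, 21 and 8 at a minimum of 5 FPKM, 10, 29 and 5 with no filter, 14, 16 and 6 in the fit over all 9 tumors, 13, 6 and 4 with the covariate and 1, 0 and 0 with the block, and 0 to 34, 7 to 52 and 2 to 43 when tumors were left out. Unknown depth limits Hal most, since its values were near or under 1 FPKM in PBS tumors.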
